A study of Sus scrofa with 6 samples.

Results

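Exon DMRs are the regions of the pig genome that differed in DNA methylation between 2 breeds and that overlap an exon of an annotated transcript. Methylated DNA immunoprecipitation sequencing (MeDIP-seq) captures DNA fragments with an antibody to methylated cytosine, so that more reads over a CpG mean more methylation there. The libraries came from backfat adipose tissue of 3 female Landrace pigs (LBF), a lean breed, and 3 female Rongchang pigs (RBF), an indigenous Chinese breed selected for fatness. All pigs were 210 days old and kept in the same way, and each library came from a separate animal chosen at random from a larger number of its breed. Breed was the difference between the groups, and no RNA was measured in these libraries with which the tissue label could be checked. The study called 14163 differentially methylated regions (DMRs) on these 6 libraries. Those with at least 1 annotation to an exon numbered 261. Of these 261 exon DMRs, 56 were also annotated to a promoter and 205 were not, 53 were also annotated to an intron, 13 to the 2 kb downstream of a gene, and 148 had exon annotations alone. A gene symbol was given for 236 of them and none for 25.

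In mammals most CpGs are methylated, and the bodies of transcribed genes usually carry methylation through exons and introns. The CpG-rich stretches around transcription starts, called CpG islands, are usually kept free of it, and methylation that reaches a first exon is often found together with silencing of the gene. Exon methylation is also known for its links to splicing and to promoters that lie inside genes. The values below are read depths of DNA, so they say nothing of how much RNA a gene made.

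Backfat of the lean breed carried the higher depth at most exon DMRs, but a sizeable minority went the other way. Of the 261, 189 were higher in LBF and 72 were lower, which is 72.4% higher (exact 95% binomial interval 66.6% to 77.7%). Among all listed DMRs 84.8% were higher in LBF, among those without an exon annotation 85.1%, among DMRs of introns without an exon 84.1%, and among intergenic DMRs 85.6%. The median log2 fold change of the exon DMRs, LBF over RBF on the scale log2(depth + 1), was 1.29 and the values ran from -3.66 to 4.40, against a median of 1.64 for all listed DMRs. Exon DMRs that were higher in LBF had a median depth of 40.4 in LBF and 11.9 in RBF, and those that were lower had 9.97 and 30.7. The depth is the mean over the CpGs of a region after the authors' normalization.

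By limma, with p-values adjusted after Benjamini-Hochberg across the 14163 listed DMRs and a threshold of 0.05, 187 exon DMRs passed as higher and 72 as lower. Over all listed DMRs 84.5% passed as higher, 15.1% as lower and 99.5% in either direction. The table holds regions that had already been called on these same 6 pigs, so passing describes the size of a difference against the spread between pigs and is not independent evidence of it. For the same reason the 3 LBF libraries and the 3 RBF libraries did not overlap at any exon DMR, as was the case for 100% of the listed DMRs. Backfat is a mixture of cells, so a change of methylation within a cell type and a change in the mixture of cell types cannot be told apart.

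The balance between the breeds depends on how the libraries are scaled. When the libraries were rescaled so that all had an equal median depth at the listed DMRs (equal library medians), the median log2 fold change of all listed DMRs moved by 1.41, from 1.64 to 0.24. Under that setting all 72 lower exon DMRs kept their direction and passed limma, whereas of the 189 higher ones 70 turned towards RBF (13 of these passing limma) and 17 still passed as higher. Over all listed DMRs 27.9% then passed limma in either direction, and 58.1% were higher in LBF by mean depth, against 44.1% of the exon DMRs. The statements on direction below hold for the authors' scaling. Regions that turn under equal medians are marked where they are named, and since 17 of the 189 then still passed as higher, most of the higher calls named below end there. Because the listed DMRs were chosen for differing, and the setting places its zero at their middle, part of its outcome follows from how it was built. It multiplied the depths of the LBF libraries by 0.670 to 0.697 and those of the RBF libraries by 1.64 to 2.52. A region lower in LBF could therefore only become lower, so its kept direction and call there are no check of it.

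**Figure D1:**
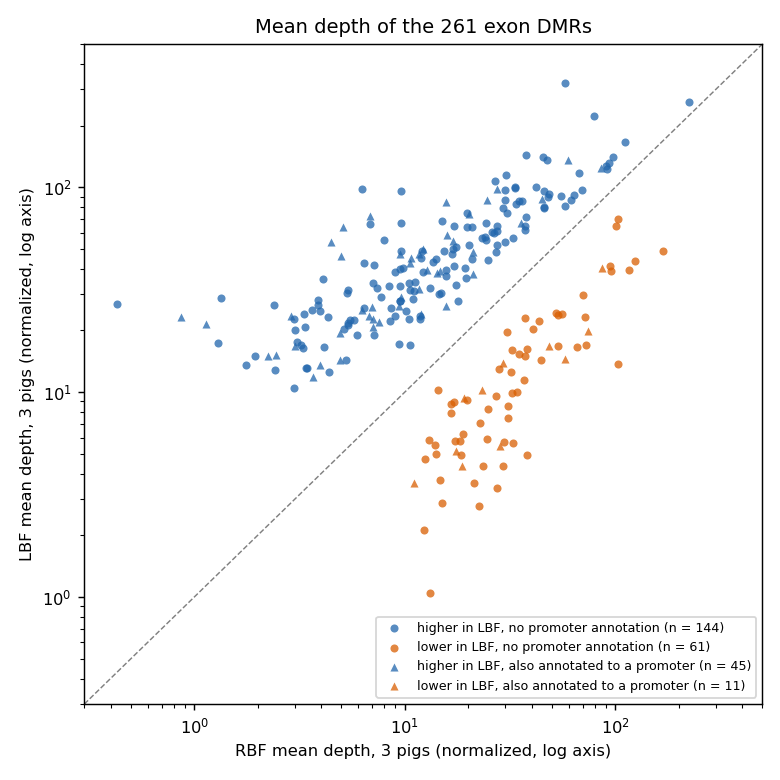
Mean normalized depth of the 261 exon DMRs in RBF (x axis) and LBF (y axis), both on log axes, with 1 point per region and means over 3 pigs of each breed. Triangles are regions also annotated to a promoter, blue points lie above the dashed line of equal depth (189) and orange points below it (72), and the gap around the line follows from the table listing called regions.

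Differences of more than 4-fold on the log2(depth + 1) scale were found at 63 of the higher exon DMRs (33.3%) and at 15 of the lower ones (20.8%), against 41.5% and 26.0% of all listed DMRs of those directions. At 62.4% of the exon DMRs that were higher in LBF, RBF replicate 3 had the lowest depth of its breed (59.4% of all listed ones), and at 62.5% of those that were lower, LBF replicate 1 did (47.7%). The median coefficient of variation over exon DMRs was 11.9% in LBF and 21.5% in RBF, and over all listed DMRs 12.3% and 34.3%. The median depth of an exon DMR lay between 28.9 and 30.2 in the LBF libraries and between 15.4 and 18.3 in those of RBF. At 18 exon DMRs at least 1 library was at 0.

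The shares of the directions varied with the place within the transcript. DMRs in first exons were higher in LBF in 52 of 62 cases (83.9%, interval 72.3% to 92.0%), close to the share of all listed DMRs. Those in internal exons were higher in 90 of 133 (67.7%, 59.0% to 75.5%), and those in last exons in 53 of 73 (72.6%, 60.9% to 82.4%). The median log2 fold changes of these classes were 1.62, 1.10 and 1.31. Under equal library medians these medians were 0.21, -0.34 and -0.10. A DMR could stand in more than 1 class where it spans exons or transcripts, and the differences between these classes were not tested.

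Overlap with a promoter ran along the same line, since most of the promoter overlaps are first exons. Of the 56 exon DMRs that also had a promoter annotation, 50 were in first exons and 53 had the exon and the promoter of the same transcript. LBF had the higher depth at 45 of them (80.4%, 67.6% to 89.8%) and at 144 of the 205 without a promoter (70.2%, 63.5% to 76.4%). With equal library medians these counts fell to 35 of 56 and 84 of 205. By the authors' classes of promoters, 6 overlapped a promoter of high CpG content (5 higher, 1 lower), 39 one of intermediate content (33 higher, 6 lower) and 13 one of low content (9 higher, 4 lower).

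DMRs with many CpGs were more often higher in LBF. The median exon DMR was 159 bp long (15 to 1649 bp) and held 7 CpGs (5 to 50). With 10 or more CpGs, 64 of 74 were higher in LBF (86.5%), and with fewer, 125 of 187 (66.8%). The same held for all listed DMRs, at 96.2% and 80.9%, and in both classes the exon share stood below the listed one. CpG density was 4.80 per 100 bp at the median exon DMR and 5.23 at the median listed DMR. CpG island shores, the flanks of islands, held 27 of the 261 exon DMRs (10.3%) and 567 of all 14163 listed DMRs (4.0%). Among promoter DMRs without an exon annotation the share in shores was 13.3%. Among exon DMRs it was 3.57% with a promoter annotation and 12.2% without one. LBF was higher at 21 of the 27 exon DMRs in shores (77.8%, against 84.0% of all listed shore DMRs), with a median log2 fold change of 0.90 over the 27. Only 2 exon DMRs lay in an island, those of MAP3K4 and AKAP11.

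**Figure D2:**
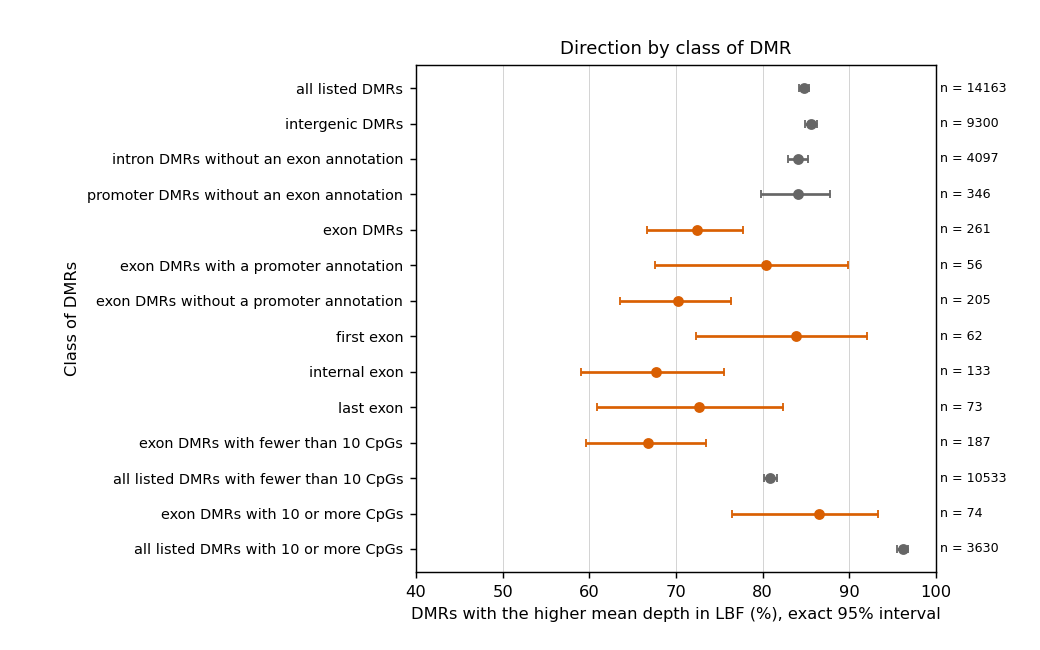
Share of DMRs with the higher mean depth in LBF (x axis, percent) for classes of exon DMRs (orange) and for other listed DMRs (grey), where bars are exact 95% binomial intervals that cover counting error only and n is the number of regions. Internal exons (67.7%) and exon DMRs with fewer than 10 CpGs (66.8%) sit lowest, and first exons (83.9%) sit beside all listed DMRs (84.8%).

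Exon DMRs were spread over all chromosomes, with 21 each on chromosomes 2, 6 and 12. They made up 3.76% of the listed DMRs of chromosome 12 and 0.888% of those of chromosome 10. Chromosome 3 held 9 higher and 9 lower exon DMRs and chromosome 2 held 19 and 2. On the X chromosome 12 of 14 were higher in LBF (85.7%, against 90.2% of all listed X DMRs). All coordinates below are those of the deposited table, on the Sscrofa10.2 build.

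The lowest log2 fold changes reached further than 4-fold. TSC1, which encodes hamartin, a brake on the growth kinase mTOR, had the lowest log2 fold change, in an internal exon (chromosome 1, 306818487 to 306818557, 5 CpGs). Its depth was 0, 0 and 10.204 in the LBF pigs and 24.98, 25.6 and 31.5 in the RBF pigs, a log2 fold change of -3.66 (standard error 0.94, limma adjusted p = 0.0081). All RBF pigs thus stood at more than the highest LBF pig, and LBF replicate 3 was the one LBF pig with any reads there.

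HOXB8, a homeobox factor that sets position along the body axis, had the deepest of these regions, in its last exon in the shore of an island (chromosome 12, 24855948 to 24856248, 16 CpGs). The LBF pigs had 13.0, 19.4 and 8.60 and the RBF pigs 112, 95.8 and 99.2, so that the mean in RBF was 7.49 times that in LBF. The log2 fold change was -2.88 (standard error 0.31, limma adjusted p = 0.0013). No LBF pig came near the RBF range at this exon.

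F8, which encodes coagulation factor VIII and lies on the X chromosome, had depths of 0.196, 2.15 and 0.791 in the LBF pigs against 15.5, 10.7 and 13.6 in the RBF pigs in an internal exon (-2.90). RNF169, which binds ubiquitin marks at broken DNA, had LBF depths of 0, 0.737 and 7.63 and RBF depths of 26.6, 23.2 and 17.7 in its last exon (-3.23). At F8 every LBF pig had little depth. At RNF169 LBF replicates 1 and 2 had almost none, while replicate 3 had 7.63. Both regions were of moderate depth in RBF. The others of the 10 lowest were TTC27 (-2.80), ZSWIM5 (-2.65), the nuclear pore protein TPR (-2.36), the mitochondrial serine carrier SFXN1 (-2.30), the mitochondrial carrier of branched-chain amino acids SLC25A44 (-2.28) and LRIG3 (-2.23). The SLC25A44 region was also annotated to a promoter, but not under that symbol. All 10 of the lowest passed limma, with adjusted p between 0.0013 and 0.0081. They also passed with equal library medians, a setting under which lower regions could only become lower.

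At the other end, RBF pigs were nearly without depth at several exons. CD3E, a subunit of the T cell receptor complex, had the highest log2 fold change, in its last exon (chromosome 9, 50666465 to 50666593, 11 CpGs). The LBF pigs had 27.1, 25.5 and 27.7 and the RBF pigs 0, 0 and 1.29, a log2 fold change of 4.40 (standard error 0.36, limma adjusted p = 0.0012). RBF was thus almost without reads there, while the LBF pigs lay close together. An intron DMR of CD3E 957 bp away pointed the same way, with means ± SD over 3 pigs of 60.2 ± 7.01 for LBF and 7.61 ± 5.22 for RBF, the form used below. With equal library medians the exon DMR stayed higher and passed limma (3.57, adjusted p = 0.0028).

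ATL3, an atlastin that shapes the tubules of the endoplasmic reticulum, had 119, 80.4 and 92.9 in LBF against 9.39, 0 and 9.36 in RBF in its last exon, with a log2 fold change of 4.35 (standard error 0.91, limma adjusted p = 0.0042), but its call ended with equal library medians (adjusted p = 0.084). GBP6, an interferon-induced guanylate-binding protein, had 47.6, 68.2 and 76.1 against 8.31, 4.83 and 2.11 in its first exon and promoter (3.53). The breeds were far apart at both. ITM2A, a membrane protein on the X chromosome, had a pair of DMRs 67 bp apart in the first part of the gene (3.51 and 1.90). ZSCAN21, a zinc finger factor, had a pair 1671 bp apart in first exons (3.95 and 3.42). OR1A1 (3.84), P2RX5-TAX1BP3 (3.39), the microtubule-severing katanin KATNAL1 (3.38) and CH242-239N4.2 (3.32) completed the 10 highest, all of which passed limma under the authors' scaling. With equal library medians all 10 kept their direction and 7 still passed, while the calls of ATL3, KATNAL1 and the second ZSCAN21 region ended (limma adjusted p = 0.084, 0.10 and 0.098).

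**Figure D3:**
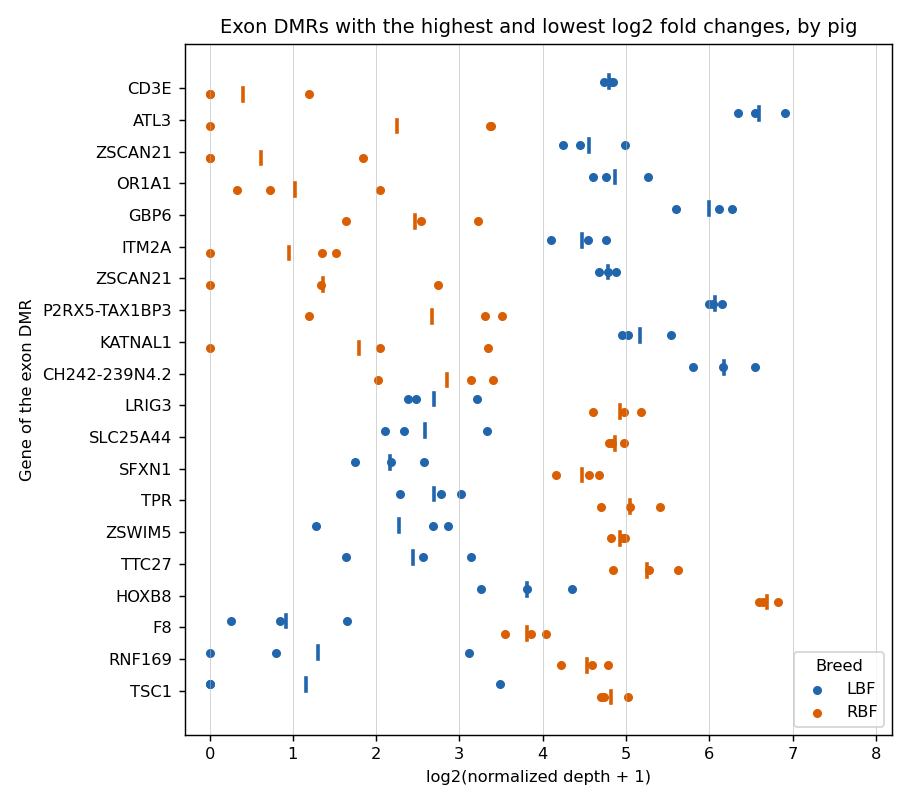
Depth of each pig as log2(normalized depth + 1) (x axis) at the 10 exon DMRs with the highest and the 10 with the lowest log2 fold change among those with a symbol and a mean depth of at least 10 in the higher breed, in order from highest at the top. Dots are pigs (blue LBF, orange RBF, 3 each), short bars are means, and the breeds do not overlap in any row, from CD3E (4.40) at the top to TSC1 (-3.66) at the bottom.

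The gene groups that follow were lists matched by symbol and are not complete, so their counts hold for the listed symbols alone, and members noticed to be missing are named with them. G protein-coupled receptors, which pass signals such as odours and hormones across the membrane, held 9 exon DMRs, 7 higher and 2 lower in LBF, all past limma. Other DMRs of such genes were higher in 80.5% of cases. Pig transcripts with the human homologue OR1A1, an olfactory receptor, gave 4 of them in a cluster on chromosome 12 between 50941391 and 51104398, all in first exons. The region of the highest log2 fold change had 26.1, 37.3 and 23.2 in LBF and 0.254, 0.651 and 3.12 in RBF (3.84, standard error 0.47), and the others had log2 fold changes of 2.50, 1.88 and 1.18. All 4 were higher in each LBF pig than in any RBF pig, though with equal library medians the last turned (-0.27, limma adjusted p = 0.49) and 2 of the 7 higher receptor DMRs still passed.

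Within and beyond that stretch, DMRs annotated to ssc-mir-4335 at 2 separate places, starting at 51082482 and 51313723, were also higher. They had 47.3 ± 6.78 against 11.6 ± 6.69 over 21 CpGs (2.06) and 42.7 ± 9.28 against 10.6 ± 2.35 (1.91). Both calls ended with equal library medians (limma adjusted p = 0.18 and 0.27). Olfactory receptors are a large family of like sequences, and reads that matched several places were counted once by the authors, so that depths may be shared between copies. The same may hold for the 2 places named ssc-mir-4335. Outside the cluster the Wnt receptor FZD10 (-1.14) and the olfactory receptor OR5K3 (-0.96) were lower. FZD10 had 15.3 ± 1.21 in LBF and 34.8 ± 3.34 in RBF over its first exon. The adenosine receptor ADORA3, not on the list, was higher (0.95, and -0.46 with equal library medians).

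Protein kinases and phosphatases, which add and remove phosphate as signals pass through the cell, held 8 exon DMRs by the list, all 8 higher in LBF and past limma, although 4 of the 8 turned with equal library medians and none then passed limma in either direction. The list missed 4 kinases with exon DMRs, of which the receptor kinase MERTK (-0.64, limma adjusted p = 0.013) and the receptor-desensitizing kinase ADRBK2 (-0.62, limma adjusted p = 0.014) were lower and PRKX (3.22) and INSRR (2.23) higher. Other DMRs of the listed genes were higher in 79.9% of cases. KIT, the receptor of stem cell factor, needed by pigment cells, mast cells and blood stem cells, gave 3 of the 8, all in internal exons. The first (chromosome 8, 43554311 to 43554670, 22 CpGs) had 260.0, 358 and 347 in LBF and 75.3, 83.5 and 14.2 in RBF, which gave a log2 fold change of 2.79 (standard error 0.66, limma adjusted p = 0.0063). The mean of 322 in LBF was the highest among all exon DMRs.

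The second KIT region (43589055 to 43589663, 24 CpGs) had 107 ± 25.7 and 26.8 ± 10.6 (2.01), and the third (43598467 to 43598566) 223 ± 44.1 and 79.6 ± 21.4 (1.49). Across the gene, 9 intron DMRs were higher in LBF too, with log2 fold changes from 1.59 to 3.66. None of these introns turned with equal library medians and 3 then still passed limma. White pig breeds, to which Landrace belongs, are known to carry extra copies of KIT, and MeDIP depth rises with copies of DNA as well as with methylation. Copy number was not measured here, so that the 2 cannot be told apart at this gene.

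Among the other signalling enzymes, the stress kinase MAP3K4 had a first exon DMR in a CpG island with 141, 141 and 128 in LBF and 76.7, 72.9 and 29.9 in RBF (log2 fold change 1.29, limma adjusted p = 0.014). RBF replicate 3 was far below its breed here. LYN, a Src-family kinase of blood cells, had the longest exon DMR (1649 bp, 41 CpGs), at 53.3, 58.9 and 57.4 against 31.2, 37.7 and 28.8 (0.79, limma adjusted p = 0.0073). The breeds were close but did not overlap over this long stretch. The phosphatases DUSP26 (1.88), DUSP28 (1.31) and PTPRJ (1.26) were also higher. MAP3K4, LYN, DUSP28 and PTPRJ are the 4 that turned with equal library medians, to -0.19, -0.68, -0.16 and -0.14.

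Transcription factors and chromatin regulators on the list were evenly divided, with 4 exon DMRs higher and 4 lower in LBF, all past limma, while other DMRs of these genes were higher in 78.7% of cases. The lower ones were HOXB8, the nuclear receptor ESRRG, which drives oxidative metabolism, the body axis factor HOXD10 and the histone demethylase KDM4C. HOXD10 had 4.26, 4.83 and 5.78 in LBF and 13.9, 14.4 and 14.0 in RBF in its last exon (-1.35). ESRRG had 13.8, 30.4 and 25.4 against 60.7, 74.3 and 79.5, also in its last exon (-1.64), and KDM4C had 13.0 ± 2.36 against 28.0 ± 2.12 (-1.07). With equal library medians these stayed lower and past limma, but that setting could only lower them further. The higher ones were the pair in ZSCAN21, the skeletal patterning factor NKX3-2 (1.18) and the zinc finger protein ZBTB41 (1.26), of which NKX3-2 and ZBTB41 turned with equal library medians (-0.25 and -0.22), without passing limma. The list missed KANSL1 of a histone acetyltransferase complex (-1.31) and CREB3L2, which were lower, and the factors TBR1 and ETV1, which were higher (0.80 each, and -0.67 each with equal library medians).

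Channels and transporters, which move ions and solutes across membranes, held 12 exon DMRs, 8 higher and 4 lower, all past limma, beside 86.4% higher among their other DMRs, and 2 of the 8 higher ones still passed with equal library medians. The potassium channels KCNJ13 (2.88) and KCNK18 (2.66), the proton pump subunit ATP6V0A4 (2.88) and the efflux pump ABCG2 (2.51) were higher. ABCG2 had 16.2, 23.5 and 20.4 in LBF and 5.08, 2.78 and 1.15 in RBF in its last exon. Lower were SLC25A44, the carriers SLC35F1 (-2.12) and SLC35B3 (-1.82), and the acetylcholine receptor subunit CHRNB1 (-1.57). CHRNB1 had 8.08, 6.93 and 6.23 against 24.9, 21.9 and 21.8. The 3 LBF pigs were thus close together and well below RBF at this gene. The phosphate carrier SLC20A2 (1.37) and the organic anion carrier SLC22A10 (1.38) were higher, but lay at -0.06 and -0.05 with equal library medians.

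Immune genes held 6 exon DMRs, all higher in LBF and past limma (88.0% higher among their other DMRs), though 1 of the 6 turned with equal library medians and 3 then still passed. Besides CD3E and GBP6 they included CD101, a surface protein of leukocytes (13.6 ± 2.36 against 1.77 ± 1.12, log2 fold change 2.49), NLRX1, a mitochondrial sensor of the innate response (2.32), and the antiviral enzyme OAS1 (2.16). OAS1 had 55.7, 44.5 and 48.9 in LBF and 11.9, 20.2 and 4.30 in RBF. Pig transcripts with the homologue CAMP, a cathelicidin antimicrobial peptide, stood in none of the groups. They had a pair of DMRs in internal or last exons on chromosome 13, starting at 34139194 and 34149748. The symbol does not tell whether both lie in the same pig gene. The regions had 16.8, 17.0 and 18.6 against 5.33, 3.91 and 0 (2.55), and 75.6, 70.1 and 77.7 against 32.2, 23.7 and 3.07 (2.34). RBF replicate 3 was the lowest at both, and the call of the second ended without any 1 of the LBF libraries (limma adjusted p from 0.052 to 0.058).

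Adhesion and matrix genes held 6 exon DMRs, 5 higher and 1 lower, all past limma, although none of the 5 still passed as higher with equal library medians (limma, lowest adjusted p = 0.11). Other DMRs of these genes were higher in 82.0% of cases. The clustered protocadherins PCDHA9 (2.65) and PCDHGA3 (1.66), which give neurons their surface identity, the guidance cue SEMA3E (2.03) and the integrin ITGA5 (1.48) were higher, as was the collagen COL4A6 (0.81, and -0.59 with equal library medians). SEMA3E had 147, 142 and 141 in LBF and 19.1, 37.0 and 57.2 in RBF, so that the RBF pigs differed among themselves by more than the LBF pigs. ITGA2, which pairs to bind collagen, was lower (8.90 ± 2.07 against 17.2 ± 0.592, -0.90). Cytoskeleton and motor protein genes held 7, 6 higher and 1 lower, the lower one in MYH10, described below, and 2 of the higher ones turned with equal library medians, 1 of them past limma. Their other DMRs were higher in 78.8% of cases.

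Lipid and adipose genes, which are of interest in a tissue that stores fat, held 3 exon DMRs, 1 higher and 2 lower. MGLL, the monoglyceride lipase that completes the breakdown of stored fat, had 20.9, 28.4 and 28.0 in LBF and 4.88, 7.19 and 7.23 in RBF in its last exon (log2 fold change 1.85, limma adjusted p = 0.0016, and 0.48 with a call that ended with equal library medians). Pig transcripts with the homologue CYP2B6, a cytochrome P450 that oxidizes drugs and steroids, had a pair of internal exon DMRs on chromosome 6. They had 8.22, 13.3 and 12.7 in LBF against 43.2, 30.7 and 37.0 in RBF (-1.63), and 33.5, 32.2 and 51.0 against 103, 91.4 and 90.8 (-1.30). Both exons were lower in each LBF pig, while an intron DMR of the gene was higher (0.96, and -0.36 with equal library medians). Further DMRs of lipid genes outside exons were higher in LBF in 81.6% of 125 cases.

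Some genes of energy metabolism outside the groups were picked after their values had been seen. LEPROT, which shares its locus with the leptin receptor, had 38.5 ± 5.49 in LBF and 12.3 ± 2.27 in RBF (1.58), with a call that ended with equal library medians (0.15, limma adjusted p = 0.70), and its 3 intron DMRs were higher as well, of which 1 then turned (-0.25). Lower were UQCRFS1, the iron-sulphur subunit of respiratory complex III (11.7, 21.4 and 16.5 against 68.2, 57.2 and 70.8, -1.95), DBT of the branched-chain keto acid dehydrogenase (-1.89) and MCUR1, a regulator of the mitochondrial calcium uniporter (-1.19). These lower DMRs lay in last or internal exons and passed limma.

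Small GTPase genes and their regulators, a list matched by symbol that also took in AKAP11, PDE2A and PDE8B of cyclic nucleotide signalling, held 8 exon DMRs, 7 higher and 1 lower (TSC1), of which 7 passed limma, and 5 of the higher ones, PDE8B (-0.17) among them, turned with equal library medians, 2 of them past limma. Other DMRs of these genes were higher in 87.4% of cases. The member that did not pass was AKAP11, an anchor of protein kinase A, in an island in an internal exon. It had 267, 258 and 256 in LBF and 221, 235 and 216 in RBF, which gave a log2 fold change of 0.22 (limma adjusted p = 0.26), and turned to -1.28 with equal library medians. PSPC1, a protein of nuclear paraspeckles, was the other exon DMR that did not pass (125, 125 and 117 against 91.9, 90.9 and 92.3, 0.41, limma adjusted p = 0.052), and with equal library medians it turned and passed as lower (-1.07, limma adjusted p = 0.020). Both are deep regions with small relative differences between breeds that do not overlap.

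Ubiquitin and protein turnover genes held 6 exon DMRs, 4 higher and 2 lower (80.9% higher among their other DMRs), all past limma, of which 1 of the 4 still passed as higher with equal library medians. The lower ones were RNF169 and the deubiquitinase USP13 (-0.97). The autophagy factor ATG9B had 23.0, 21.0 and 31.7 against 4.35, 4.69 and 1.84 (2.55), and the ubiquitin-conjugating enzyme UBE2D4 32.4 ± 3.50 against 7.34 ± 5.68 (2.28). RNA processing and translation genes held 8 by the list, all 8 higher and past limma (87.1% higher among their other DMRs). With equal library medians 4 of the 8 turned and none of the rest passed as higher (limma, lowest adjusted p = 0.24). The 8 included the nuclear pore protein NUP205 (68.5 ± 1.73 against 15.0 ± 6.48, 2.19), the polymerase subunits POLR3A (1.77) and POLR1B (1.63), the integrator subunit INTS7 (0.89) and the ribosomal protein gene RPL10L (0.53), the last 2 of which were among those that turned. RPL10L then passed limma as lower (-0.95, adjusted p = 0.029). Under the authors' scaling its call as higher ended without any 1 of the LBF libraries, or without RBF replicate 1 (limma adjusted p from 0.066 to 0.087). The list missed RRP15, a factor of ribosomal RNA processing, and the nuclear pore protein TPR, both lower (-1.48 and -2.36) and past limma. The 155 exon DMRs with a symbol in none of the groups were 107 higher and 48 lower (69.0%).

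**Figure D4:**
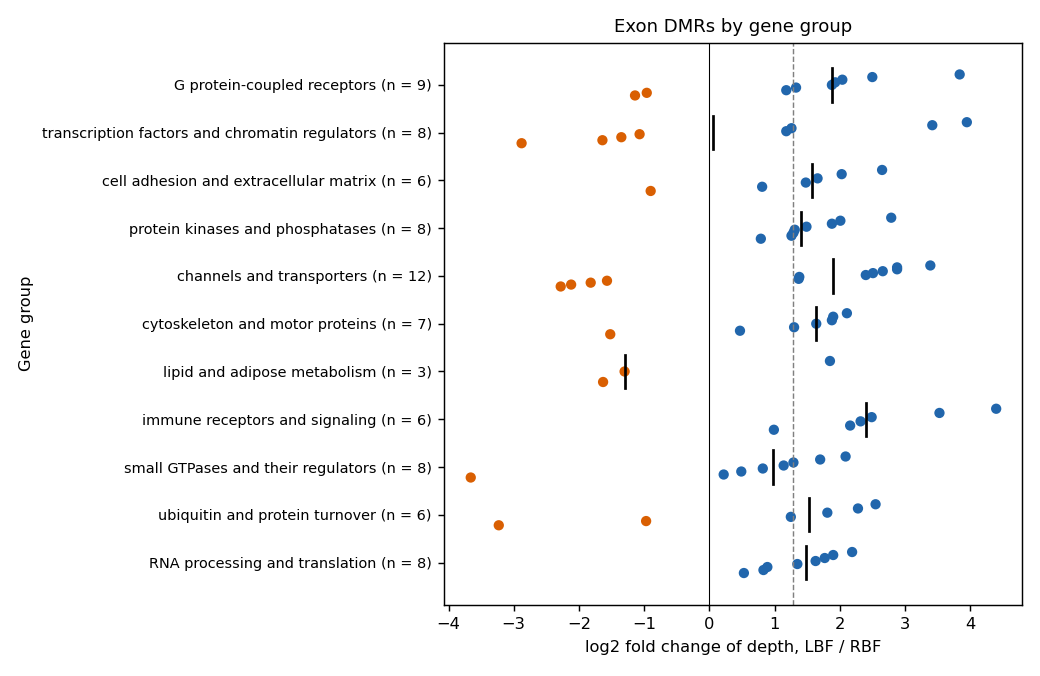
Log2 fold change of depth, LBF over RBF on the log2(depth + 1) scale (x axis), of the exon DMRs of each gene group, with 1 dot per DMR (blue higher, orange lower in LBF), a bar for the median of the group and a dashed line for the median of all exon DMRs (1.29). The listed kinases and phosphatases, immune genes and RNA processing genes lie wholly on the LBF side under the authors' scaling (4 of 8, 1 of 6 and 4 of 8 turned with equal library medians), and the listed transcription factors are split 4 and 4.

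Genes of small RNAs consist of a single exon, so that an exon DMR there covers the gene or its start. Lower in LBF were 5S_rRNA, a ribosomal RNA (14.5 ± 4.76 against 57.9 ± 14.8, -1.94), and RNU6-434P, a spliceosomal U6 pseudogene (16.7 ± 6.05 against 48.2 ± 7.30, -1.51). Higher were MIR367, a microRNA of pluripotent cells (15.1 ± 3.51 against 2.24 ± 2.61, 2.59), and RNU6-61P (39.5 ± 3.92 against 12.7 ± 1.05, 1.56). These RNAs have many near-identical copies in the genome, except MIR367, so that the placement of their reads is uncertain.

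Among DMRs over both exon and promoter, the retinol dehydrogenase RDH16 had 25.6, 22.9 and 22.1 in LBF and 4.27, 4.37 and 0 in RBF (3.01, with the call lost under equal library medians), and INSRR, a receptor related to that of insulin, 16.7, 16.8 and 12.1 against 3.05, 2.50 and 1.81 (2.23). Both were low in every RBF pig. BMP10, a growth factor of the heart, went the other way (5.68, 6.45 and 3.36 against 18.8, 18.7 and 15.1, -1.62), as did CREB3L2, a factor of the unfolded protein response (3.61 ± 1.06 against 11.0 ± 1.74, -1.40). The CREB3L2 region was the shortest exon DMR, at 15 bp with 5 CpGs.

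The 5 exon DMRs with the most CpGs were all higher in LBF, in MYH10 (50 CpGs), LYN (41), CDHR3 (36), GRXCR2 (34) and FAM124A (25). CDHR3, a cadherin of airway cells, had 24.6, 24.2 and 21.6 against 10.3, 10.4 and 14.9 over 1360 bp of its last exon (0.94). GRXCR2, a glutaredoxin-like protein of hair cells in the ear, had 23.6 ± 1.27 against 6.76 ± 1.36 (1.68) and FAM124A 41.3 ± 2.70 against 17.1 ± 5.60 (1.27). With equal library medians LYN, CDHR3 (-0.47) and FAM124A (-0.17) turned, without passing limma. By the mean over all libraries, the deepest 5 were AKAP11, the first and the third of the KIT regions, SHISA2 and ZC3H13. SHISA2, which holds back Wnt and FGF receptors, had a pair of DMRs 23 bp apart in its last exon (166 ± 1.94 against 111 ± 8.69, 0.58, and 89.8 ± 5.67 against 47.8 ± 5.82, 0.90), and ZC3H13, a part of the RNA methylation complex, had 140 ± 5.99 against 98.0 ± 7.20 (0.52). These small differences turned with equal library medians, to -0.91, -0.58 and -0.97, with the first and the last past limma. The calls of ZC3H13 and of the deeper SHISA2 region also ended without any 1 of the LBF libraries (limma adjusted p from 0.051 to 0.084).

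Exon DMRs stood in 222 genes, counted by symbol and chromosome, of which 11 had more than 1 and 90 had a further DMR in another element. Where the exon DMRs of a gene were lower in LBF, its further listed DMRs were mostly higher, as were most of all listed DMRs. Of 23 genes with lower exon DMRs alone and further DMRs elsewhere, all further DMRs were higher in 17, all were lower in 3 and both occurred in 3. Their 39 further DMRs were higher in 82.1% of cases, near the 84.8% of all listed DMRs. In 65 genes with higher exon DMRs alone, the 137 further DMRs were higher in 90.5%.

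In some genes the 2 directions lay close together. At TSC1 the exon DMR that was lower in LBF lay 1840 bp from a promoter DMR of 16 CpGs that was higher (28.0 ± 4.23 in LBF, 2.83 ± 4.90 in RBF, log2 fold change 3.77, with the call lost under equal library medians, limma adjusted p = 0.068). At EXTL3, an enzyme of heparan sulphate synthesis, the exon DMR (4.37 ± 1.19 against 23.6 ± 6.80, -2.17) lay 436 bp from an intron DMR of 21 CpGs with 27.5 ± 6.57 against 2.02 ± 2.02 (3.44). Further intron DMRs of EXTL3 were higher too (3.16 and 2.03), and the calls of all 3 introns ended with equal library medians (limma adjusted p from 0.052 to 0.17). At TTC27 the exon had 2.11, 4.90 and 7.83 against 37.8, 27.8 and 48.3 (-2.80), and an intron DMR had 93.8 ± 0.686 against 2.76 ± 3.65 (5.16). DDB1, a subunit of a ubiquitin ligase that recognizes DNA damage, showed the reverse order, with a higher exon DMR (56.2 ± 4.55 against 23.3 ± 4.91, 1.25, and -0.20 with equal library medians) 1476 bp from a lower intron DMR (-2.54).

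In 3 genes the exons themselves went in both directions. ZSWIM5 was lower in its last exon (6.27, 1.43 and 5.40 in LBF, 27.3, 30.2 and 30.8 in RBF) and higher in an internal exon (74.9, 53.3 and 73.3 against 20.7, 2.78 and 5.45, log2 fold change 3.06). EDRF1, a regulator of red cell genes, was lower in an internal exon (39.5 ± 12.1 against 115.6 ± 20.9, -1.55) and higher in another (71.6 ± 8.60 against 37.7 ± 7.25, 0.92, and -0.55 with equal library medians). MYH10, the heavy chain of non-muscle myosin IIB, was the third.

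In MYH10 the 2 directions were separated along the gene. The lower exon DMR (chromosome 12, 56176548 to 56176823, 12 CpGs) had 33.1, 40.1 and 57.7 in LBF and 122, 115 and 135 in RBF (-1.52, limma adjusted p = 0.0024). Around it 4 intron DMRs were also lower, with log2 fold changes of -3.28, -3.82, -3.45 and -2.43. The DMR over the first exon and promoter (56374483 to 56375657, 50 CpGs) had 16.5, 22.4 and 19.1 against 7.46, 4.94 and 2.32 (1.88). Near it 3 intron DMRs (2.26, 2.91 and 2.10) and 2 promoter DMRs (2.94 and 3.67) were higher. The promoter end of the gene thus carried more depth in LBF and the stretch further in carried less. With equal library medians the lower ones could only become lower. The higher ones kept their direction, and the 2 promoter DMRs still passed limma as higher. The calls of the first exon and of the 3 introns near it ended. ESRRG had DMRs of both directions too, with its exon and a pair of introns lower (-1.81 and -3.29) and 3 introns higher (1.07, 2.36 and 0.56), of which the first and the last turned with equal library medians (-0.41 and -0.92, the last past limma).

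**Figure D5:**
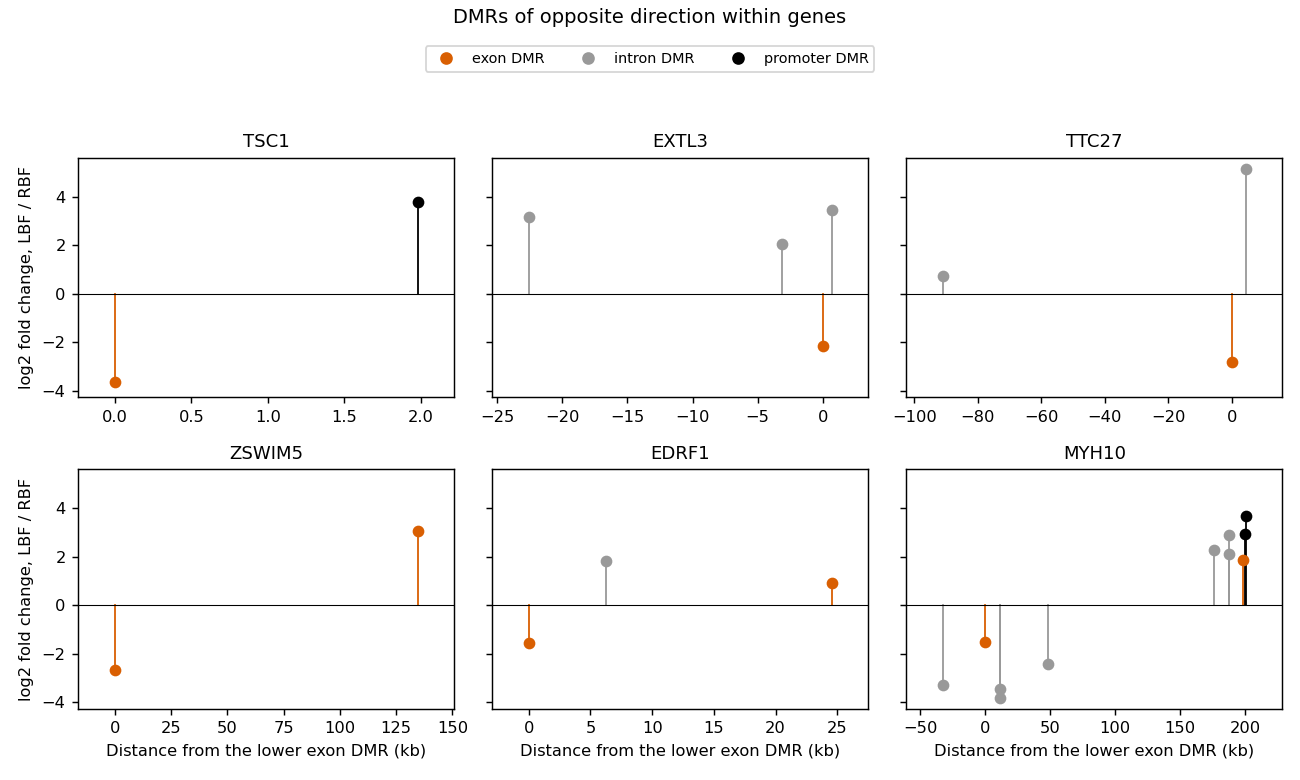
Log2 fold change of depth, LBF over RBF (y axis), of every DMR listed for 6 genes, against the distance of its middle from the exon DMR that was lower in LBF (x axis, kb, different for each gene). Orange marks exon DMRs, grey intron DMRs and black promoter DMRs. The exon DMRs that were lower stand beside higher ones in TSC1, EXTL3, TTC27 and EDRF1 under the authors' scaling (the higher exon of EDRF1 turned with equal library medians, as did 1 intron of TTC27). In ZSWIM5 the lower and the higher exon DMR lie far apart (starting at 153610840 and 153745570), and in MYH10 the lower ones lie together.

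The median distance to the next listed DMR was 27.7 kb for exon DMRs and 25.7 kb for all listed ones. For lower exon DMRs it was 43.8 kb and for higher ones 25.6 kb, against 29.5 and 25.0 kb for all listed DMRs of those directions. Another DMR lay within 2 kb of 32 exon DMRs (12.3%, against 9.63% of all listed), and the nearest had the same direction in 27 of these (84.4%, against 84.6%). Within 10 kb, 18 lower exon DMRs had a neighbour, and it had the same direction in 4 (22.2%, against 23.7% of all lower DMRs).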

How the data were processed

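MeDIP-seq of backfat from 3 LBF and 3 RBF pigs was analysed from the DMR table that the authors deposited. The authors aligned reads with SOAP2 to Sscrofa10.2, counted reads that matched several places once, and joined differing CpGs into regions of at least 5 CpGs. The values they deposited are a coverage signal per library, a normalized read depth averaged over the CpGs of each region. For chromosomal profiles the authors scaled depth to the average number of reads in a group, but how the DMR table was scaled is not given in the sources used. Breed means and the authors' own p-values and FDR in the table were not used.

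A DMR was an exon DMR if at least 1 of its annotation rows gave an exon (301 of 15883 rows). Symbols are those of the table (human homologues). In 1 row the symbol had become a date and was left out. A linear model of log2(depth + 1) on breed was fitted to the 14163 DMRs with limma 3.58.1 in R 4.3.3, with Benjamini-Hochberg adjusted p-values under 0.05 called, after a check on simulated data. Exact binomial intervals (scipy 1.17.1) cover counting error only. Total reads per library were not used here, and the depth at a DMR sets its precision.

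Named genes were the 10 highest and 10 lowest log2 fold changes, examples from DMRs shared with promoters, from 11 gene groups and from islands, genes with several exon DMRs, and the 5 with most CpGs or depth. Some genes are not reported here. The members and lists were chosen with earlier results of these data known. Alternatives were the pseudocount, a depth minimum, equal library medians, a replicate block, each library left out, and narrower sets of DMRs.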

Additional observations from a re-analysis of the deposited data

How the results depend on the processing

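Results are given for the authors' scaling. Over 261 exon DMRs, equal library medians gave 17 higher and 85 lower past limma, 44.1% higher by mean depth and a median log2 fold change of -0.14, with 159 calls lost. Over all listed DMRs that setting gave 27.9% past limma in either direction, 58.1% higher by mean depth and a median of 0.24. Named regions that turned were AKAP11 (-1.28), PSPC1 (-1.07), ZC3H13 (-0.97), RPL10L (-0.95), SHISA2 (-0.91 and -0.58), LYN (-0.68), COL4A6 (-0.59), TBR1 and ETV1 (-0.67 each), INTS7 (-0.57), EDRF1 (-0.55), CDHR3 (-0.47), ADORA3 (-0.46), OR1A1 (-0.27), NKX3-2 (-0.25), ZBTB41 (-0.22), DDB1 (-0.20), MAP3K4 (-0.19), FAM124A (-0.17), PDE8B (-0.17), DUSP28 (-0.16), PTPRJ (-0.14), SLC20A2 (-0.06) and SLC22A10 (-0.05). With at least 10 CpGs, 74 exon DMRs remained, with 62 higher and 10 lower past limma, 86.5% higher and a median of 1.65. With exon annotations alone 102 were higher and 44 lower past limma. These counts are smaller because fewer DMRs enter. A pseudocount of 0.5 or 5, a mean depth of at least 10, autosomes alone and no promoter annotation kept the counts within 1.5 times. Without each library in turn, 171 to 188 were higher past limma, and the median ran from 1.13 to 1.37. The share of 72.4% could not move, because the breeds do not overlap at any of them. Calls lost were 16, 16 and 20 without an LBF library and 6, 6 and 0 without an RBF library.

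Deviations from the breed means correlated at 0.063, -0.012 and 0.061 between samples of the same replicate number. Between samples of different numbers the correlations ran from -0.081 to 0.035. Correlations this small give little sign of pairing but cannot exclude it, and the main fit was unpaired. The paper names paired t-tests for some of its comparisons of the breeds. With the replicate number as a block, 176 were higher past limma and 15 calls were lost. A stricter limit on the authors' FDR was not run, because their comparison columns were not used. Depth limits the precision at regions near 0 in a breed.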
